A study of Mus musculus with 6 samples.

Results

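The genes of glucose breakdown were followed in newborn mouse retinas that lack cyclin D1. The set holds 39 genes of glycolysis, the pentose phosphate pathway and pyruvate use, chosen with earlier results of these data known. Of these, 33 had a probe set on the array that names a single gene. Each gene was read from its brightest probe set over the 6 arrays, and Pfkfb3 fell among the dimmest 40% of genes, so 32 members were tested among 10916 genes. No value was read for Gpi1, Eno1, Mpc2, Pfkfb1 or G6pdx, and Gapdh had no probe set that names it alone outside the control probe sets.

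The knockout retinas came from cyclin D1 -/- newborns and the wildtype retinas from wildtype newborns, both taken at birth, with no further allele or treatment named. Each genotype had 3 numbered pools, and each pool was read on 1 Affymetrix expression array. The submitters' question was how genes bound by cyclin D1 change when the protein is missing. The labels give neither the strain, the litters nor the number of animals in a pool, so a p-value measures the spread between these pools only, which may be partly technical.

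Glycolysis turns glucose into pyruvate in the cytosol, with hexokinase, phosphofructokinase and pyruvate kinase at its committed steps. Pyruvate then either becomes lactate, which leaves the cell through monocarboxylate transporters, or enters the mitochondrion and is turned into acetyl-CoA by pyruvate dehydrogenase, which the Pdk kinases switch off. The pentose phosphate pathway branches off to supply NADPH and ribose for nucleotides. Dividing retinal progenitors and photoreceptors are both known for making much lactate from glucose even where oxygen is present.

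Several facts of the arrays bear on every value below. Median deposited signal ran from 40.6 to 50.5 units, and with 6 arrays their number limits the precision. Ccnd1 itself, read first as a check of the labels, averaged 8.86 ± 0.06 in knockout and 12.45 ± 0.10 in wildtype pools (SD, n = 3 each; log2 of normalised signal plus 16), and all 6 pools lay on the side of their label. Pools 1 and 2 of a genotype were more alike than other pairs (SD of the log2 difference 0.21 for knockout and 0.22 for wildtype, against 0.28 to 0.52), and whether they share tissue is not given. Knockout pools 1 and 2 and wildtype pool 3 had brighter bacterial hybridisation controls (mean log2 9.82, 9.97 and 10.15) than knockout pool 3 and wildtype pools 1 and 2 (9.53, 9.66 and 9.66). This split was set by rank, not by a gap in these values. Wildtype pool 3 stood apart, being the lowest or highest of the 6 arrays for 21 of 33 members and for 58.9% of all tested genes. Values within these sets of arrays are therefore given for the members that passed the test, each resting on a single array of one genotype.

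Of the 32 tested members, 3 rose and 3 fell in retinas without cyclin D1 at a limma adjusted p under 0.1, the false discovery rate named in the labels. Slc2a1, Pdk2 and Pdha1 were higher, and Slc16a3, Pgk1 and Tpi1 lower. That is 18.8% of the members, against 4.66% of all tested genes (2.03% higher and 2.63% lower). The list was chosen with earlier results of these data known, so no test was run over it. Over all 6 pools the members as a whole did not lie to one side, with 15 positive and 17 negative differences. Their median log2 difference was -0.02, beside 0.02 over all genes. Without wildtype pool 3 the members' median was -0.05, beside 0.01 over all genes, with 3 members called higher and 7 lower. That fit called 17.6% of all tested genes, 862 higher and 1055 lower. The knockout and wildtype pools did not overlap for 14 members, 7 in each direction (43.8%), against 20% of all tested genes (10.5% higher and 9.48% lower). The threshold decides the size of the called group, since at an adjusted p under 0.05 only Slc2a1, Slc16a3 and Pgk1 remained. When the alike pools 1 and 2 were averaged to 1 sample, none of the 32 members passed, and 43 genes in all did (limma; over all pools, 4 members were higher and 6 lower at an unadjusted p under 0.05, as were 13.5% of all genes in either direction). In bulk retina, fewer cells of a type and less RNA per cell cannot be told apart.

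**Figure D1:**
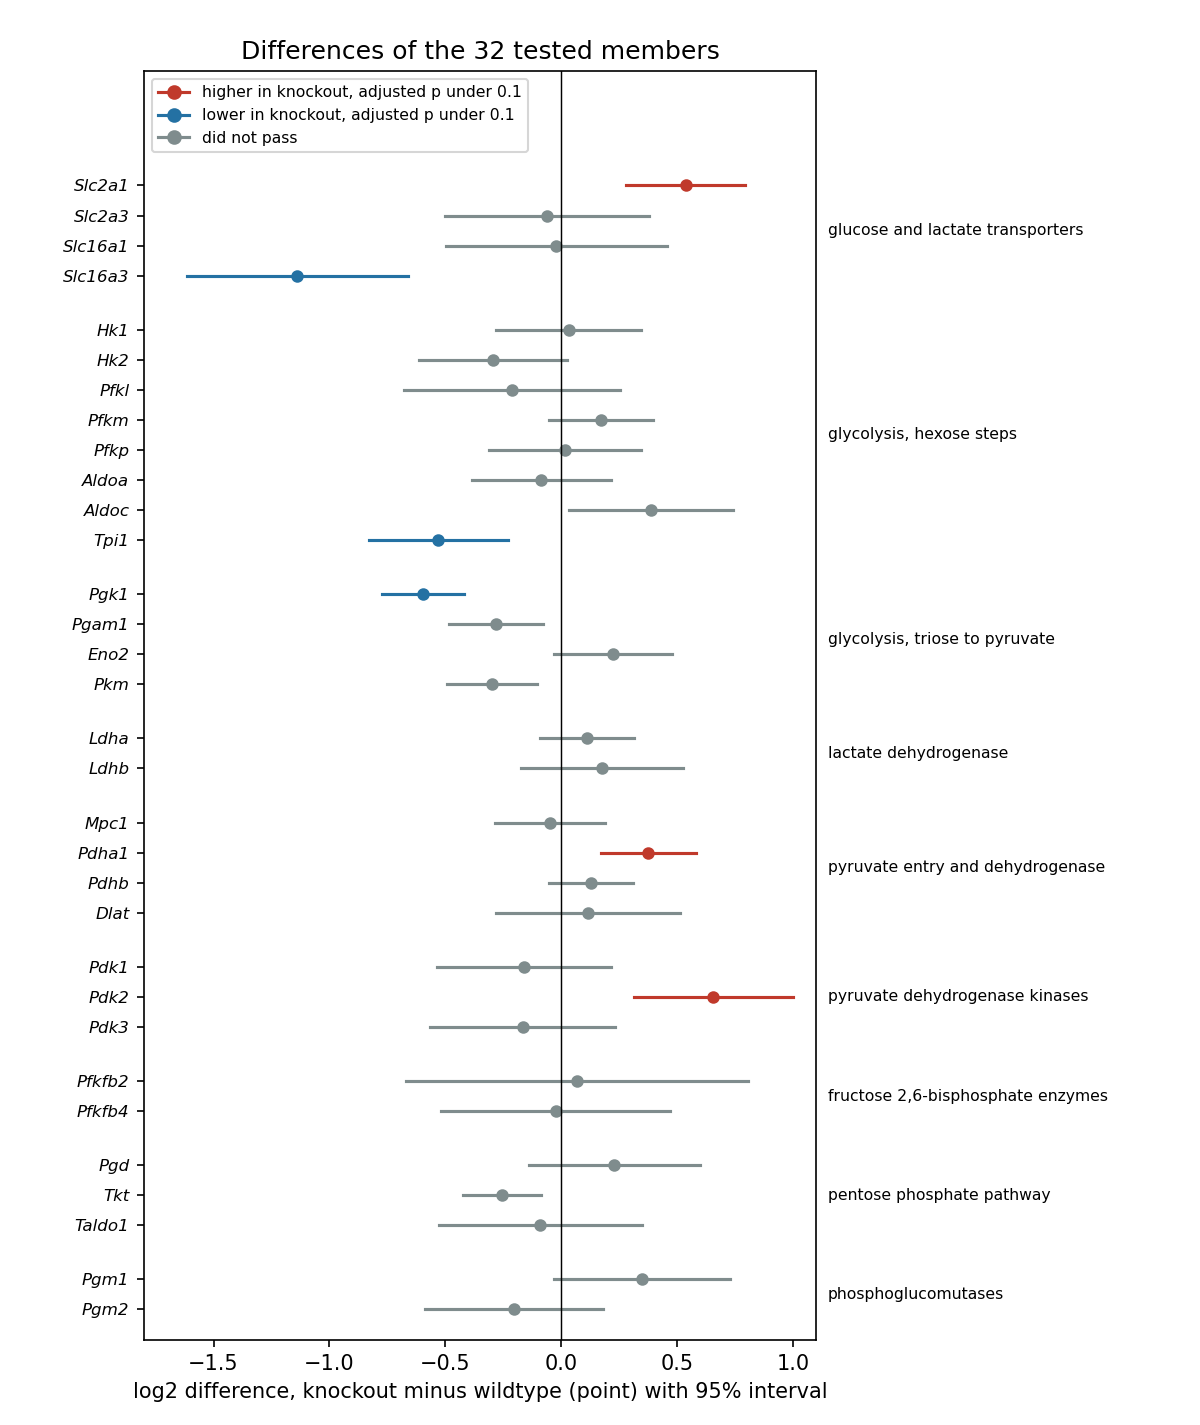
Log2 difference, knockout minus wildtype, of each of the 32 tested members (points) with its 95% interval from the limma fit (lines), grouped by role. The red intervals lie wholly above 0 (Slc2a1, Pdha1 and Pdk2) and the blue ones of Slc16a3, Tpi1 and Pgk1 wholly below. The grey intervals of Aldoc, Pgam1, Pkm and Tkt also miss 0 but did not pass after adjustment.

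Of 4 transporters that bring glucose in or carry lactate, Slc2a1 rose, Slc16a3 fell and the other 2 did not pass. Slc2a1, the basal glucose transporter of brain and retina, had log2 values of 10.71, 10.66 and 10.34 in knockout pools 1, 2 and 3, against 10.15, 9.99 and 9.97 in wildtype pools 1, 2 and 3. Every knockout pool was above every wildtype pool, with knockout pool 3 nearest to them. The rise was 1.45-fold (log2 difference 0.54, SE 0.11, limma adjusted p = 0.0459), and its other 2 probe sets gave 0.46 and 0.47. The difference was 0.72 within the arrays with brighter controls and 0.27 within those with dimmer controls. Its call ended in 6 of 21 alternatives (adjusted p from 0.00230 to 0.445). Among them were the fits without knockout pool 1 (0.212), knockout pool 2 (0.219) or wildtype pool 2 (0.142). The call also ended with pools 1 and 2 averaged, without an intensity trend (limma adjusted p = 0.116) and, narrowly, with the submitters' error model (adjusted p = 0.101).

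Slc16a3, a lactate exporter typical of strongly glycolytic cells, had the largest difference of the members. Its log2 values were 6.06, 5.97 and 5.91 in knockout pools 1, 2 and 3, against 7.35, 7.35 and 6.66 in wildtype pools 1, 2 and 3. The knockout pools lay close together below all wildtype pools, and wildtype pool 3 sat between the other wildtype pools and the knockout pools. The fall was 2.20-fold (log2 difference -1.14, SE 0.21, limma adjusted p = 0.0282), and at this dim level the added 16 units make the fold smaller than that of the signal. Within the arrays with brighter controls the difference was -0.64, and within the others -1.44. Only a single probe set reads the gene. Its call ended in 5 of 20 alternatives (adjusted p from 8.98e-05 to 0.386). These were pools 1 and 2 averaged, and leaving out knockout pool 1, 2 or 3 or wildtype pool 1 (limma adjusted p = 0.115, 0.136, 0.105 and 0.1205). With 60% of genes left out Slc16a3 was too dim to test.

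Their relatives Slc2a3, the neuronal glucose transporter, and Slc16a1, a lactate transporter that works in either direction, did not pass. Slc2a3 ran from 6.91 to 6.98 in knockout and from 6.62 to 7.34 in wildtype pools (log2 difference -0.06, 95% interval -0.50 to 0.38). Slc16a1 ran from 6.61 to 6.97 in knockout and from 6.40 to 7.05 in wildtype pools (-0.02, interval -0.50 to 0.46). For both, the knockout values fell inside the wildtype range. The interval of Slc16a1 does not reach the difference of Slc16a3, but the difference between the relatives was not tested.

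**Figure D2:**
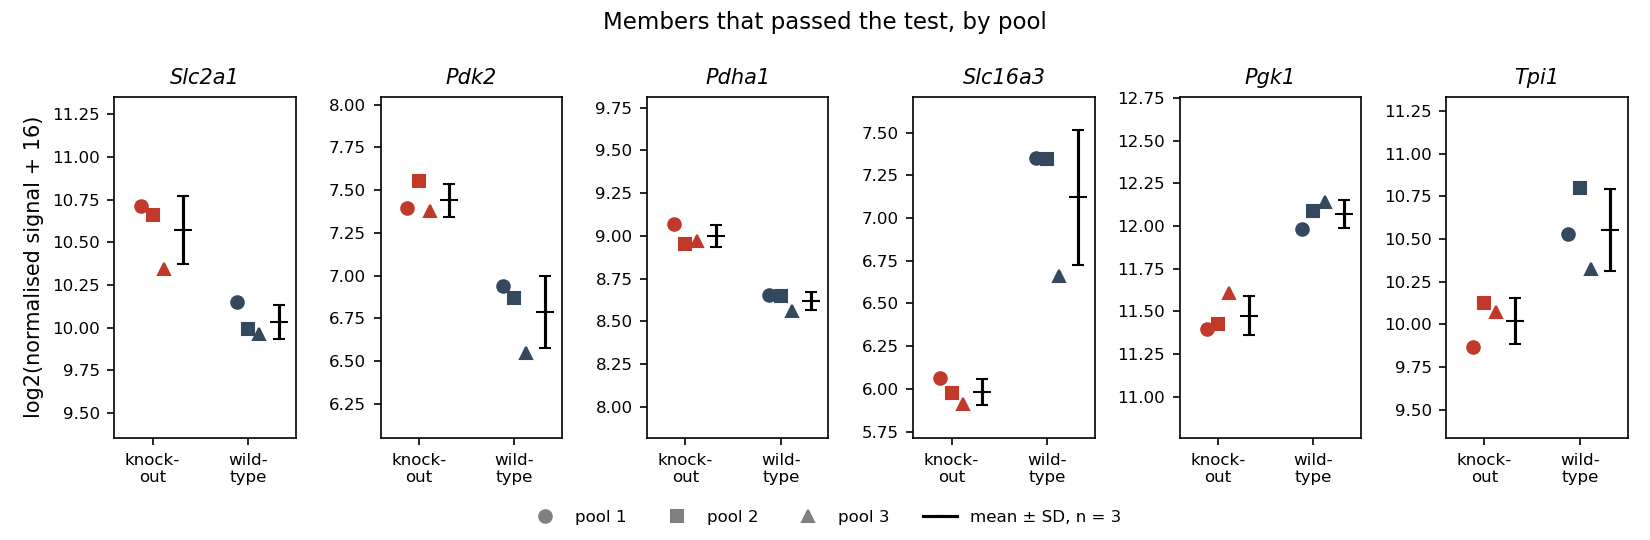
Log2 of normalised signal plus 16 (vertical axis, each panel spanning the same height of 2 log2 units) in the 3 knockout and the 3 wildtype pools for the 6 members that passed the test. Symbols mark the pool number and bars the mean ± SD. In each panel the pools of the genotypes do not overlap, and Slc16a3 shows the widest gap together with the widest wildtype spread.

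In the steps from glucose to triose phosphate, Tpi1 fell and 7 other members did not pass. Tpi1, which interconverts the triose phosphates, had log2 values of 9.87, 10.12 and 10.07 in knockout pools 1, 2 and 3, against 10.53, 10.80 and 10.32 in wildtype pools 1, 2 and 3. All knockout pools were lower, with a gap to wildtype pool 3 that is small beside the wildtype spread. The fall was 1.44-fold (log2 difference -0.53, SE 0.13, limma adjusted p = 0.0841), its other 2 probe sets gave -0.56 and, with genotypes that overlapped, -0.64, and the difference was -0.33 and -0.59 within the arrays with brighter and dimmer controls. This was the least secure of the called members, losing its call in 15 of 21 alternatives (adjusted p from 0.00357 to 0.4998), among them leaving out any 1 array except wildtype pool 3 (0.181 to 0.324).

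Among the other members of these steps, 3 did not overlap between genotypes without passing the test. Aldoc, the brain aldolase, measured 7.52, 7.41 and 7.88 in knockout and 7.16, 7.31 and 7.17 in wildtype pools (log2 difference 0.39, adjusted p = 0.308 by limma). Pfkm, the muscle-type phosphofructokinase, measured 8.15, 8.25 and 8.21 in knockout and 8.08, 8.03 and 7.99 in wildtype pools (0.17, adjusted p = 0.561 by limma). Hk2, the inducible hexokinase that photoreceptors also use, measured 6.54, 6.37 and 6.41 in knockout and 6.73, 6.86 and 6.61 in wildtype pools (-0.29, adjusted p = 0.431 by limma). Both Aldoc and Pfkm were thus higher and Hk2 lower in every knockout pool than in any wildtype pool, and none of them passed the test. Hk1, the housekeeping hexokinase, Aldoa, the general aldolase, and the phosphofructokinases Pfkl and Pfkp overlapped between genotypes, with log2 differences of 0.03, -0.08, -0.21 and 0.02. Wildtype pool 3 held the lowest Pfkl value of all pools (8.07, against 8.73 and 8.90 in the other wildtype pools), and without it Pfkl passed as lower, in a fit that called 17.6% of all tested genes.

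Of 4 measured members in the steps from triose phosphate to pyruvate, Pgk1 fell and the others did not pass. Pgk1, which makes the first ATP of the pathway, had log2 values of 11.39, 11.43 and 11.61 in knockout pools 1, 2 and 3, against 11.98, 12.09 and 12.14 in wildtype pools 1, 2 and 3. The genotypes were clearly apart, with a narrow spread in each. The fall was 1.51-fold (log2 difference -0.60, SE 0.08, limma adjusted p = 0.00685), and its other 2 probe sets gave -0.54 and -0.43. Within the arrays with brighter and dimmer controls the difference was -0.73 and -0.43. Pgk1 was the most stable of the called members, since it passed in 20 of 21 alternatives (adjusted p from 0.000187 to 0.148) and lost its call only with pools 1 and 2 averaged. Whether processed copies of the gene share its probes was not tested.

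Pkm, pyruvate kinase, and Pgam1, phosphoglycerate mutase, were also lower in every knockout pool without passing. Pkm measured 10.97, 10.89 and 11.16 in knockout and 11.32, 11.36 and 11.23 in wildtype pools (log2 difference -0.30, 95% interval -0.49 to -0.11, limma adjusted p = 0.129). Pgam1 measured 10.19, 9.98 and 10.23 in knockout and 10.47, 10.43 and 10.34 in wildtype pools (-0.28, interval -0.48 to -0.08, limma adjusted p = 0.180). Eno2, the neuron-specific enolase, ran the other way, with 8.02, 7.92 and 8.03 in knockout and 7.87, 7.72 and 7.70 in wildtype pools (0.22, limma adjusted p = 0.456). All 4 measured members of these steps had genotypes that did not overlap, 3 lower and 1 higher, against 20% of all tested genes (9.48% lower and 10.5% higher), and 1 of the 4 passed the test. Without wildtype pool 3 both Pkm and Pgam1 passed as lower, in a fit that called 17.6% of all tested genes (1917), against 4.66% with all pools. Pkm also passed as lower without knockout pool 3, where 3.05% of all tested genes were called.

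**Figure D3:**
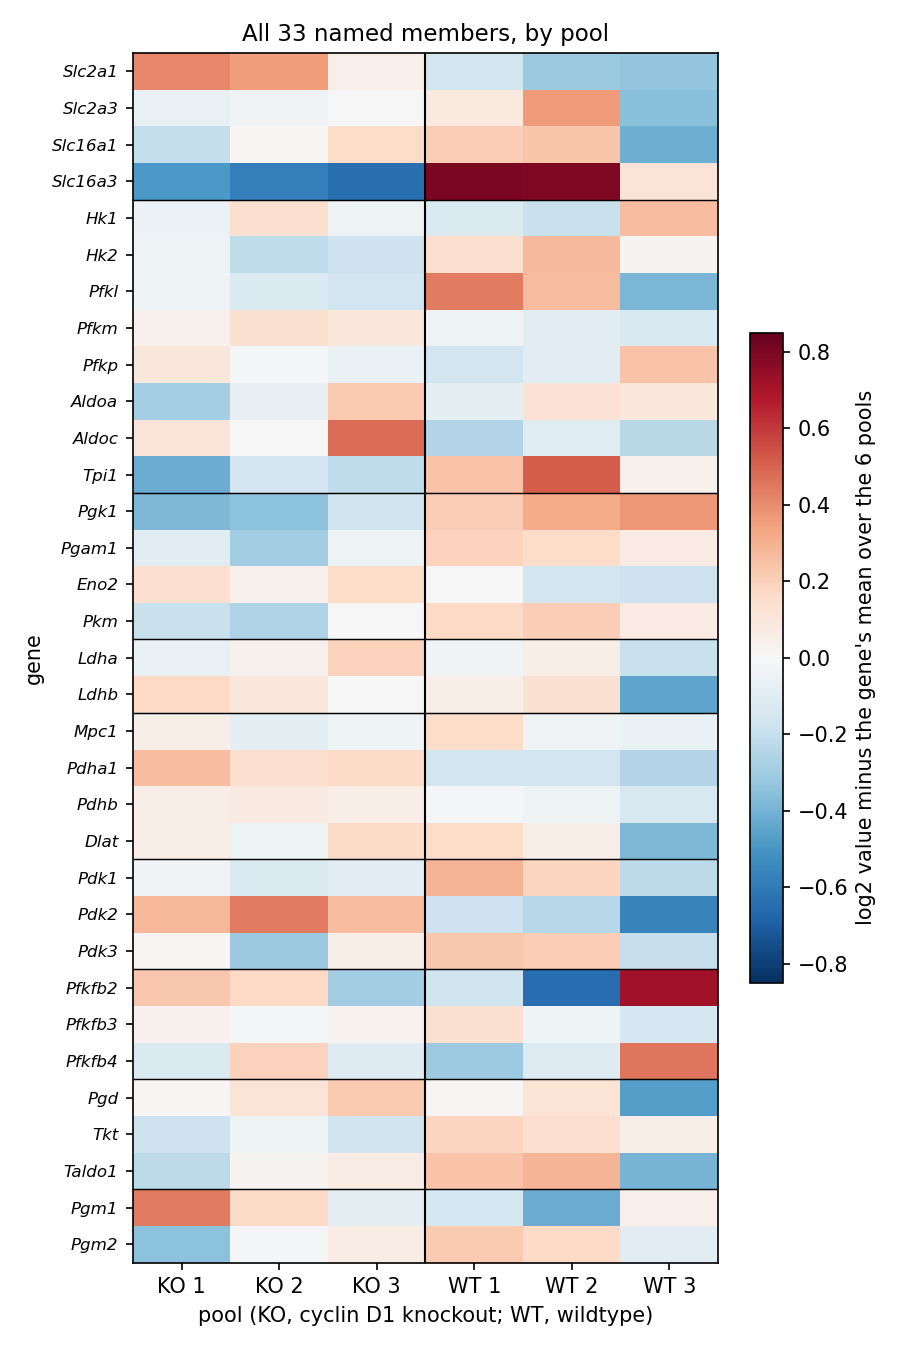
Log2 value of each of the 33 named members (rows, grouped by role with black lines) minus the gene's mean over the 6 pools, with knockout pools left and wildtype pools right of the vertical line. Slc16a3, Tpi1, Pgk1, Pgam1 and Pkm are red or pale red in wildtype pools 1 and 2 and blue or near white in knockout pools. In wildtype pool 3 Pgk1 is red, and Slc16a3, Tpi1, Pgam1 and Pkm are pale or near white. Slc2a1, Pdha1 and Pdk2 run the opposite way, and wildtype pool 3 departs from the other wildtype pools in many rows.

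Of 4 measured genes of pyruvate entry and pyruvate dehydrogenase, Pdha1 rose, as did 1 of 3 Pdk kinases. Pdha1, the catalytic alpha subunit of pyruvate dehydrogenase, had log2 values of 9.07, 8.95 and 8.97 in knockout pools 1, 2 and 3, against 8.65, 8.65 and 8.56 in wildtype pools 1, 2 and 3. The values were tight in both genotypes and did not overlap. The rise was 1.30-fold (log2 difference 0.38, SE 0.09, limma adjusted p = 0.0748), and its second probe set gave 0.40. Within the arrays with brighter and dimmer controls the difference was 0.45 and 0.32. The call ended in 14 of 21 alternatives (adjusted p from 0.00833 to 0.675), among them leaving out any 1 array except wildtype pool 3 (0.170 to 0.333).

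Pdk2, a kinase that inactivates pyruvate dehydrogenase, had log2 values of 7.40, 7.55 and 7.38 in knockout pools 1, 2 and 3, against 6.94, 6.87 and 6.54 in wildtype pools 1, 2 and 3. All knockout pools were higher, and wildtype pool 3 was the lowest. The rise was 1.58-fold (log2 difference 0.66, SE 0.15, limma adjusted p = 0.0660), 0.93 and 0.47 within the arrays with brighter and dimmer controls, from a single probe set. Its call ended in 11 of 21 alternatives (adjusted p from 0.00449 to 0.540), and leaving out any 1 array except wildtype pool 3 gave 0.139 to 0.329. So the enzyme's subunit and a kinase that blocks it were called in the same direction.

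The rest of the pyruvate genes did not pass. Pdhb, the beta subunit, measured 9.44, 9.46 and 9.44 in knockout and 9.36, 9.34 and 9.24 in wildtype pools (log2 difference 0.13, 95% interval -0.05 to 0.31). Its second probe set, a dim one (mean log2 5.93), was lower in every knockout pool (-0.36), so its probe sets disagree in direction. Dlat, the acetyltransferase subunit, and Mpc1, of the mitochondrial pyruvate carrier, overlapped between genotypes, with differences of 0.12 and -0.05. The other kinases Pdk1 and Pdk3 had differences of -0.16 and -0.17, their knockout values lying inside or across the wildtype range, and the intervals ran from -0.54 to 0.22 and from -0.56 to 0.23. Neither interval reaches the lower bound of Pdk2 (0.31), but the difference between the kinases was not tested.

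Neither subunit gene of lactate dehydrogenase passed. Ldha, the subunit that favours lactate formation, measured 11.82, 11.92 and 12.08 in knockout and 11.86, 11.94 and 11.70 in wildtype pools (log2 difference 0.11, 95% interval -0.09 to 0.32). Ldhb, which favours the reverse reaction, ran from 9.57 to 9.73 in knockout and from 9.11 to 9.69 in wildtype pools (0.18, interval -0.17 to 0.53), and all 4 of its probe sets gave differences from 0.16 to 0.25. The genotypes overlapped for both genes.

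In the pentose phosphate pathway no measured member passed. Tkt, transketolase, which links the pathway back to glycolysis, measured 10.45, 10.59 and 10.46 in knockout and 10.81, 10.77 and 10.68 in wildtype pools (log2 difference -0.25, 95% interval -0.42 to -0.09, limma adjusted p = 0.141). Its genotypes did not overlap, its other 2 probe sets gave -0.21 and -0.255 with genotypes that overlapped, and it passed as lower without wildtype pool 3, where 17.6% of all tested genes did in either direction. Pgd, which yields NADPH, and Taldo1, transaldolase, overlapped between genotypes, with differences of 0.23 (interval -0.14 to 0.60) and -0.09 (-0.53 to 0.35).

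Among the regulators and side branches no member passed. The bifunctional enzymes Pfkfb2 and Pfkfb4, which set the level of an activator of phosphofructokinase, had log2 differences of 0.07 and -0.02. Pfkfb2 ran from 8.22 to 8.75 in knockout and from 7.87 to 9.24 in wildtype pools, the widest wildtype spread of any member (SD 0.69), with wildtype pool 3 the highest. Pfkfb3, which was too dim to be tested, averaged 5.75 ± 0.03 in knockout and 5.71 ± 0.14 in wildtype pools. Pgm1, a phosphoglucomutase that connects glycogen with glycolysis, and its relative Pgm2 had differences of 0.35 (interval -0.03 to 0.73) and -0.20 (-0.59 to 0.18). The second bright probe set of Pgm1 gave -0.11, so its probe sets disagree in direction.

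Further genes of these pathways held no call. Of 64 listed, 37 could be tested and none passed (limma adjusted p under 0.1), against 4.66% of all tested genes. At that share a list of this size would hold few calls. At an unadjusted p under 0.05 by limma, 2 were higher and 1 lower, against 13.5% of all tested genes in either direction. None passed with the submitters' error model, which called 1.91% of all tested genes. Their median log2 difference was 0.04. The nearest to a call were Eno3, the muscle enolase, with 6.92, 6.75 and 7.18 in knockout and 6.25, 6.64 and 6.19 in wildtype pools (0.59, limma adjusted p = 0.163), and Bsg, basigin, the partner that carries lactate transporters to the cell surface. Bsg measured 10.02, 9.89 and 9.88 in knockout and 9.79, 9.60 and 9.39 in wildtype pools (0.34, limma adjusted p = 0.212), higher in all knockout pools while Slc16a3, one of the transporters it carries, was lower in all of them. Both genes were named after their values were seen.

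Genes of the hypoxia response, which in many cells raises glucose transporters and glycolytic enzymes together, also held no call. Of 28 listed, 23 were tested and none passed (limma), against 4.66% of all tested genes. A list of this size would hold few calls at that share. At an unadjusted p under 0.05 by limma, 1 was higher and 2 lower, against 13.5% of all tested genes in either direction. None passed by the submitters' error model, which called 1.91% of all tested genes, and the median log2 difference was -0.04. Hif1a, the oxygen-regulated factor, measured 10.28, 10.16 and 10.04 in knockout and 10.07, 9.91 and 10.04 in wildtype pools (0.15, 95% interval -0.05 to 0.36). Vegfa, a classical target, had a difference of 0.12, with genotypes that overlapped. The nearest to a call was Ddit4, a stress-induced inhibitor of mTOR signalling, with 8.47, 8.47 and 8.60 in knockout and 8.31, 7.93 and 7.75 in wildtype pools (0.51, limma adjusted p = 0.148). Higd1a and Ndrg1, both induced by low oxygen, had differences of -0.42 and -0.31 with genotypes that overlapped, and Bnip3, a mitophagy receptor, was lower in every knockout pool (-0.33, limma adjusted p = 0.426). These genes were picked with their values known. Without wildtype pool 3, 5 of the 23 tested genes passed, in a fit that called 17.6% of all tested genes.

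The 250 bases before the start of each called member are shown to set rising and falling genes side by side (RefSeq, GRCm38.p6). Capitals mark ACGTG or its reverse complement CACGT, which both lie in the longer motif CACGTG bound by Myc-type factors. ACGTG is a form of the core of the hypoxia response element. The other form, GCGTG, was neither marked nor counted, so the counts below do not cover the whole element. For a gene with several listed starts the outermost is printed.
Slc2a1, chr4:119108495-119108744, plus strand: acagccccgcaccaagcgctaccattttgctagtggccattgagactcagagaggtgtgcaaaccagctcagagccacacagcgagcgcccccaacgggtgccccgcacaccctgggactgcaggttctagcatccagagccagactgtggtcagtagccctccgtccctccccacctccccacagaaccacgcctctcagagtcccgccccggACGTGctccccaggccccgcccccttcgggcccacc
Pdk2, chr11:95041372-95041621, minus strand: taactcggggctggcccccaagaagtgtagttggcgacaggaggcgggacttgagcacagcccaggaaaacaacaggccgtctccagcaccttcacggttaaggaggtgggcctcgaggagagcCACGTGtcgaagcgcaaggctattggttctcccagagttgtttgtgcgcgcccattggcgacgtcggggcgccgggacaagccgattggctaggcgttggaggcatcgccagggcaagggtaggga
Pdha1, chrX:160138431-160138680, minus strand: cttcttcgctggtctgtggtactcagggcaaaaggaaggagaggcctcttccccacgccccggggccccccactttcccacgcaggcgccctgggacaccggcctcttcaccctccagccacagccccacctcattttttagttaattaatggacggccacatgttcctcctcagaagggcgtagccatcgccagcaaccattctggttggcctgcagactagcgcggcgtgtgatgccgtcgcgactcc
Slc16a3, chr11:120948817-120949066, plus strand: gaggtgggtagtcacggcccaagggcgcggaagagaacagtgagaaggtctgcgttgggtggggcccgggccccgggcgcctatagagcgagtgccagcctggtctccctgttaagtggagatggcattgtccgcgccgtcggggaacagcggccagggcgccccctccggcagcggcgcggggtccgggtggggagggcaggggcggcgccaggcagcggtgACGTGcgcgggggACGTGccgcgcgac
Pgk1, chrX:106186850-106187099, plus strand: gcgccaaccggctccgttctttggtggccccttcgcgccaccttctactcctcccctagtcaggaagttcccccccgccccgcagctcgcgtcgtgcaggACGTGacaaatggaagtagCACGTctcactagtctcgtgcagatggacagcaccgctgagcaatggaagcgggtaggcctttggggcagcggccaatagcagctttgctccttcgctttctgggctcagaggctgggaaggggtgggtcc
Tpi1, chr6:124814159-124814408, minus strand: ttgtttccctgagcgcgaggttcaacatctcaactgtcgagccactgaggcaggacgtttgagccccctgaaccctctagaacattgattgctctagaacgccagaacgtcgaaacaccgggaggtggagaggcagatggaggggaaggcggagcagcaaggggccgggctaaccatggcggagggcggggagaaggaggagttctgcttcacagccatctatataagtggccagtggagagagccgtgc
Among the genes that rose, Slc2a1 held 1 match, Pdk2 held CACGTG, which counts on both strands, and Pdha1 none. Among those that fell, Slc16a3 held 2, Pgk1 2 and Tpi1 none. The motif thus occurred on both sides. It was present before at least 1 start of 17 of the 32 members with a listed start (53.1%), which include the untested Pfkfb3 and lack Slc2a3. The like share was 25.3% of the 8888 tested genes with a listed start and 18.5% of all 27025 genes with one. Counted by window, 16.6% of all windows of this length held the motif. Genes with several starts have more windows in which to hold it. A match is a description of letters, not a site or a cause, and no match says only that they are not in this window.

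Markers of other cells and of dividing cells differed between the same pools. Over all tested genes, 2.03% were called higher and 2.63% lower (limma). The summed share of a list weighs its brightest genes most and does not stand for each gene. Of 17 tested lens markers 13 rose and none fell, and the list held 0.816% to 2.10% of total gene signal in knockout and 0.107% to 0.296% in wildtype pools. Knockout pool 3 held the most lens signal. It was the knockout pool nearest to wildtype for Slc2a1, Pgk1 and Pdk2 and the farthest for Slc16a3, while knockout pool 2 was the nearest for Tpi1 and Pdha1. Of 19 tested mitosis markers 18 fell and none rose, with 0.113% to 0.138% of signal in knockout and 0.258% to 0.286% in wildtype pools. The photoreceptor list held 0.361% to 0.379% in knockout and 0.254% to 0.310% in wildtype pools (4 of 16 rose), the ganglion cell list 0.217% to 0.227% and 0.140% to 0.155% (5 of 11 rose), and the list of Muller glia and astrocyte genes 0.162% to 0.166% and 0.102% to 0.119% (3 of 7 rose).

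For other cells near the retina few or no genes passed, on short lists, beside 4.66% of all tested genes. Endothelial genes, whose cells also use Slc2a1, held 0.0431% to 0.0442% in knockout and 0.0453% to 0.0463% in wildtype pools, with none of 4 tested called (limma; 1 lower at an unadjusted p under 0.05). Within that list Kdr, a receptor for VEGF, was by far the brightest gene (mean log2 10.10 in knockout and 10.11 in wildtype pools, difference -0.02). The summed share therefore mostly reads Kdr and does not stand for each gene. Cldn5, a tight junction gene of endothelium, was lower in every knockout pool (-0.79, limma adjusted p = 0.133). Pigment epithelium genes held 0.0280% to 0.0295% in knockout and 0.0327% to 0.0456% in wildtype pools, with 1 of 6 lower, and skeletal muscle genes 0.0208% to 0.0271% and 0.0176% to 0.0187%, with none of 3 called (limma; none at an unadjusted p under 0.05). None of 7 red blood cell genes was bright enough to test, and they held 0.00339% to 0.00420% in knockout and 0.00358% to 0.00483% in wildtype pools. Microglial genes ranged from 0.0145% to 0.0148% in knockout and from 0.0135% to 0.0169% in wildtype pools, with none of 3 called (limma; none at an unadjusted p under 0.05). The part of these cells in the differences of Slc2a1, Pdk2, Pdha1, Slc16a3, Pgk1 and Tpi1 was not tested.

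**Figure D4:**
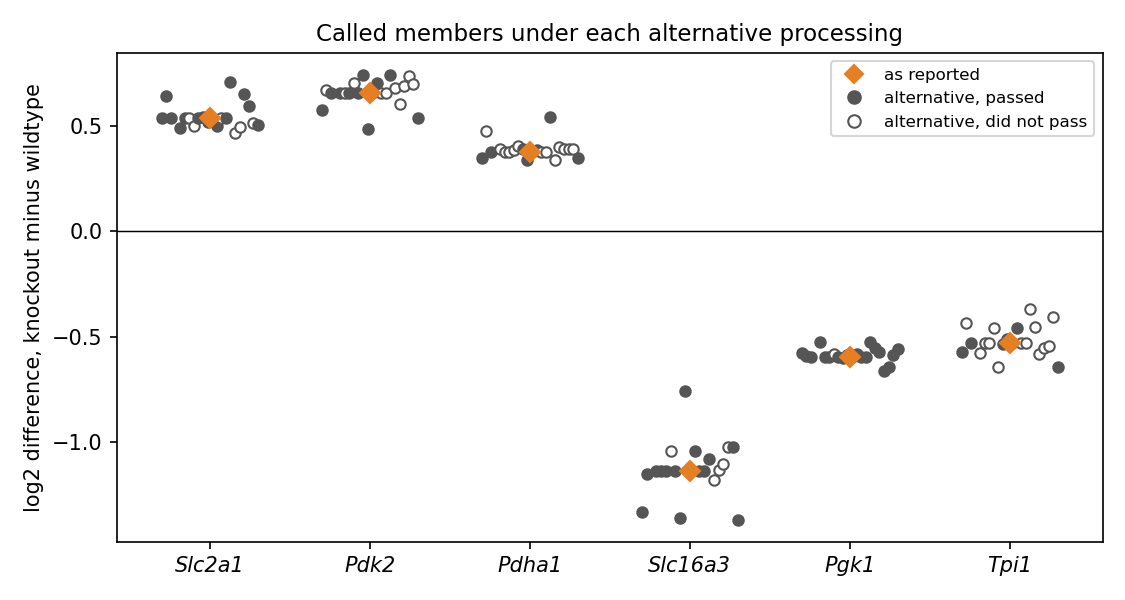
Log2 difference, knockout minus wildtype, of the 6 called members as reported (diamonds) and under each alternative processing (circles, filled where the gene still passed its threshold). The sign never changes, though only other scaling or another choice of probe set could have reversed it. Pgk1 has a single open circle, and Tpi1, Pdha1 and Pdk2 have open circles for most or many of theirs.

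The direction of all 6 called members was the same in every alternative run for them, while their calls were not. Since their genotypes did not overlap, only other scaling or another choice of probe set could have reversed a sign. The remaining alternatives could not, so the kept direction says nothing about them. In the values as deposited, with no scaling between arrays, 416 genes were higher and 176 lower over the whole table, against 222 and 287 after quantile normalisation, and over all genes the median log2 difference was 0.13 there against 0.02. Slc2a1, Pdk2, Pdha1, Slc16a3 and Pgk1 still passed there, and Tpi1 did not (log2 difference -0.37). Beside that upward shift, the log2 differences in the deposited values were -1.08 for Slc16a3, -0.52 for Pgk1, 0.71 for Slc2a1, 0.74 for Pdk2 and 0.54 for Pdha1.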

How the data were processed

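Retinas from 3 knockout and 3 wildtype pools of newborns were hybridised after 1 round of amplification, per the labels' protocols. The deposited table holds linear intensity values of 45101 probe sets; no source used here names the summarising program or its scaling. After leaving out 64 controls, 34945 probe sets had 1 gene symbol, updated through RefSeq (GRCm38.p6), giving 18193 genes. Values were quantile normalised, floored at 1 and taken to log2(value + 16), a scale on which folds of dim genes are understated. Each gene took its brightest probe set, and the dimmest 40% (7277) were left out.

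The fit was limma 3.58.1 in R 4.3.3 (lmFit, eBayes with intensity trend) without covariates, and two-sided p-values were adjusted by the Benjamini-Hochberg method over 10916 genes. Intervals are 95%. On simulated arrays of this size it recovered 20.8% of genes changed by 0.5 and 64.8% of those changed by 1 on the log2 scale, with 7.06% false calls. Those arrays were drawn independently, without alike pools or an array that stands apart, so these shares need not hold for the real pools. All members are named; values on every array are given for members that passed or did not overlap. The members and lists were chosen with earlier results of these data known. Per the labels, the submitters used the NIA Array Analysis tool (window of 200, 5 Bayesian degrees of freedom); its error model was rewritten as an alternative. Alternatives covered scaling, pseudocount, filter, probe set, variance model, array weights, threshold, blocks, averaged pools and each array left out. Figures used matplotlib 3.10.9.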

Additional observations from a re-analysis of the deposited data

How the results depend on the processing

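All values come from limma unless named otherwise. Members higher in knockout, 3 as reported, were 1 with arrays centred on their medians, without the filter on dim genes, without an intensity trend, at a threshold of 0.05 and with a replicate block, 0 with the submitters' error model and with pools 1 and 2 averaged, and 5 with array weights. Members lower, also 3, were 11 with array weights and 0 with averaged pools. Leaving out 1 array gave 0 to 3 members higher and 1 to 7 lower, with 7 lower only without wildtype pool 3. The members' median difference was 0.0855 in the values as deposited and -0.05 to 0.02 with 1 array left out. All tested genes called, 509 as reported, were 291 with median centring, 208 with the submitters' error model, 3604 with array weights, 322 at a threshold of 0.05, 269 with the replicate block, 1030 with a block for the array set, 43 with averaged pools, and 167 to 1917 with 1 array left out (fewest without knockout pool 1, most without wildtype pool 3). Other pathway genes called, 0 as reported, were 2 in the values as deposited, 11 with array weights, 2 with the set as a block and 0 to 2 with 1 array left out. Hypoxia response genes called, also 0, were 1, 8, 3 and 0 to 5 in the same order. No called member changed sign in any alternative, though for genotypes that do not overlap only scaling or the choice of probe set could change it. Deviations of same-numbered pools correlated at 0.17 for number 1, -0.35 for number 2 and -0.48 for number 3, and only knockout pool 1 correlated best with its own number, so the numbers were not treated as pairs. The labels do not say what they mark. The filter limits dim genes: Slc16a3 could not be tested with the lowest 60% of genes left out.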

Other observations

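Gapdh, the triose phosphate dehydrogenase that stands between Tpi1 and Pgk1, was read on the array's own quality control probe sets, which took no part in the fit. Whether its pseudogenes share these probes was not tested. Its 3' control had log2 values of 12.43, 12.41 and 12.52 in knockout pools 1, 2 and 3, against 12.46, 12.21 and 12.45 in wildtype pools 1, 2 and 3. The log2 differences of its 3 control probe sets were 0.08, 0.22 and 0.15, with genotypes that overlapped in each, and no test was run on them.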
